A study of Mus musculus with 38 samples.

Results

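Neurotensin is a short peptide that neurons release as a transmitter and endocrine cells of the gut release as a hormone. It is cut from a precursor encoded by Nts and acts through 2 receptors that couple to G proteins, Ntsr1 and Ntsr2. It also binds sortilin, the product of Sort1, a sorting receptor that carries proteins between the Golgi, the cell surface and endosomes. In brain, neurotensin is known for its close ties to dopamine neurons, and its expression in the striatum is known to respond to drugs that block dopamine D2 receptors, of which haloperidol is one. Nts, Ntsr1, Ntsr2 and Sort1 are the gene of the peptide and the genes of its 3 binding partners, 4 of the 18820 genes that had a probe with a single gene symbol. Each had 1 such probe, so the choice of the probe with the highest mean over all arrays left nothing out. The set was chosen by the measured brain difference of Nts between haloperidol and placebo mice, joined by the genes of its receptors, and that difference is therefore given as a description with no test.

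The arrays came from C57BL/6J mice, an inbred strain, that received haloperidol (labelled drug) or placebo, with 30 days of haloperidol treatment from slow-release pellets. Whole brain was measured in 10 haloperidol and 10 placebo mice and liver in 9 haloperidol and 9 placebo mice, with 1 array per sample. No group carries a transgene or deletion per the labels, and the mice were bred in house from founders of a commercial supplier. Because brains were pulverized whole, fewer cells that express a gene and less RNA per cell cannot be told apart, and regions that make or receive neurotensin are averaged with the rest. All levels are on the log2 scale of the deposited table, and each change is the haloperidol mean less the placebo mean.

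The labelled tissues held their defining transcripts. The synaptic gene Snap25 lay between 12.69 and 12.88 in all brain arrays, and the albumin gene Alb between 13.13 and 13.27 in all liver arrays. Some brain arrays stood apart. Alb was at 11.11 in the haloperidol brain 4T, against 3.93 to 4.51 in the other brains, and the growth hormone gene Gh reached 10.19 in 2N and 10.45 in 1R, both from haloperidol mice, and 11.49 in 1L from a placebo mouse, but at most 8.28 in the other brains. In brain 3816 of 12547 genes passed the limma test after Benjamini-Hochberg adjustment, or 30.4% of the genes tested, with 15.2% higher and 15.2% lower. In liver 0 of 12547 passed, and 1316 had an unadjusted p under 0.05.

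The region just before the start of the Nts gene is shown because Nts is the gene whose level stood apart in brain. It is the reverse strand of chr10:102490419-102490668 in GRCm38.p6, from RefSeq, written toward the gene, and its last base is the one before the gene's start. The capitals mark, in order, an AP-1 motif, a sequence 1 base away from the cAMP response element, and a TATA repeat.
Nts: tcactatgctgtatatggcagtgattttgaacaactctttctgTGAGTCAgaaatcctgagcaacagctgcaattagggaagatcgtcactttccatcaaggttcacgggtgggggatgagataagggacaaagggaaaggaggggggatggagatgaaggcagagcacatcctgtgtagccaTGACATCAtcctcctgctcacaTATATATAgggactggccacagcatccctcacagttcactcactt

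The AP-1 motif was searched as TGANTCA on both strands and matched as TGAGTCA at bases -207 to -201 from the start of Nts. It occurs in 6.73% of the 32536 windows of 250 bases before gene starts. The cAMP response element in its full form, TGACGTCA, was absent from the Nts window, while TGACNTCA, a form chosen after this sequence was seen, matched as TGACATCA at bases -67 to -60. These patterns occur in 1.56% and 7.43% of all windows, and both TGANTCA and TGACNTCA in 0.584%. The repeat TATATATA at bases -45 to -38 occurs in 0.676% of windows. None of these patterns was found in the Ntsr1 window (68.4% G and C) or the Ntsr2 window (55.2%), against 48% G and C in the Nts window and a median of 52.4%. A match describes the letters and is no evidence of binding. The table matched 3 of the 4 genes, and Sort1 is named only.

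Nts was higher in the brains of haloperidol mice. With placebo its log2 values were 5.93 in array 1N, 5.94 in 2B, 5.96 in 3L, 6.09 in 2R, 6.30 in 3T, 6.33 in 4R, 6.40 in 3N, 6.51 in 1T, 6.68 in 1L and 6.78 in 4B. With haloperidol they were 6.60 in 1R, 6.69 in 4L, 6.83 in 2N, 6.96 in 4T, 7.40 in 2T, 7.87 in 2L, 8.07 in 1B, 8.12 in 3R, 8.30 in 4N and 8.70 in 3B. The groups overlapped only at their edges: 8 of 10 haloperidol arrays lay above every placebo array, and 1R and 4L lay within the placebo range, below the placebo arrays 4B and, for 1R, 1L. The means were 6.29 ± 0.31 with placebo and 7.55 ± 0.75 with haloperidol (SD, n = 10 each), a difference of 1.26 on the log2 scale, or 2.40-fold.

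The haloperidol brains also differed among themselves in Nts. The highest and lowest haloperidol arrays were 4.27-fold apart, the placebo arrays 1.80-fold. Of the 12547 genes tested in brain, 12 had a larger SD than Nts among haloperidol arrays and 378 among placebo arrays, where the median SD over genes was 0.194 and 0.138. The 4 lowest haloperidol arrays were 1R and 2N, with high Gh, 4T, with high Alb, and 4L, with neither (Gh 5.30, Alb 4.23). The highest, 3B, had Gh at 7.26, and placebo 1L, with the highest Gh of all, was second highest in Nts among placebo brains. The difference was 1.52 when 1L, 1R and 2N were left out, and 1.29 when 4N, 4T (both haloperidol) and placebo 1L were left out. Leaving out single arrays gave 1.14 to 1.37.

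**Figure D1:**
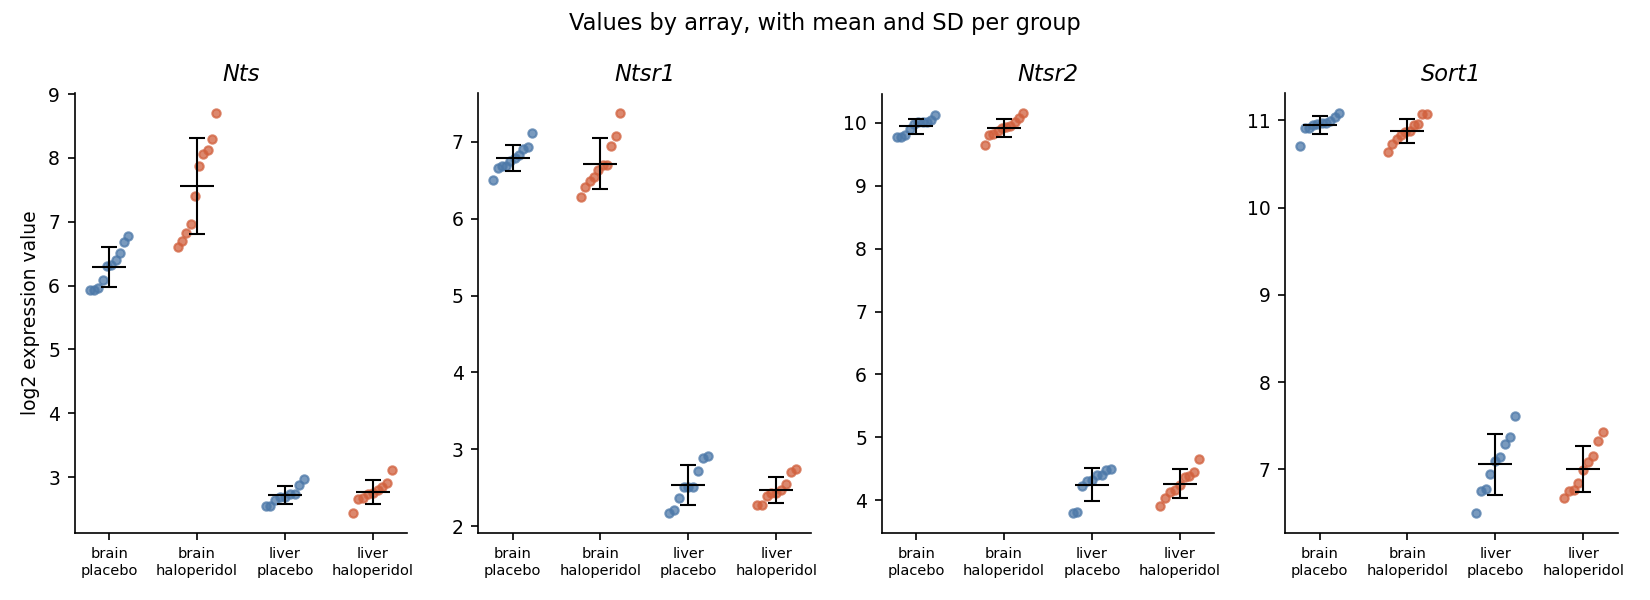
Log2 expression value (vertical axis, a separate scale for each gene) of Nts, Ntsr1, Ntsr2 and Sort1 in each array of the 4 groups, with points ordered by value and the mean and SD in black. Nts in brain runs from 5.93 to 6.78 with placebo and from 6.60 to 8.70 with haloperidol, while the groups of the other genes overlap within each tissue; brain and liver appear to have been normalized apart.

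The sample titles carry a tag of a digit and a letter, whose meaning the labels do not give. Within each of the 4 tag digits the haloperidol mean of Nts in brain was above the placebo mean, in the same arrays by which Nts was chosen. The difference was 0.96 in digit 1 (2 haloperidol, 3 placebo arrays), 1.36 in digit 2 (3 and 2), 2.19 in digit 3 (2 and 3) and 0.77 in digit 4 (3 and 2). In digits 2 and 3 the haloperidol arrays did not overlap the placebo arrays. In digits 1 and 4 the lowest haloperidol array, at 6.60 and 6.69, lay below the highest placebo array, at 6.68 and 6.78.

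**Figure D2:**
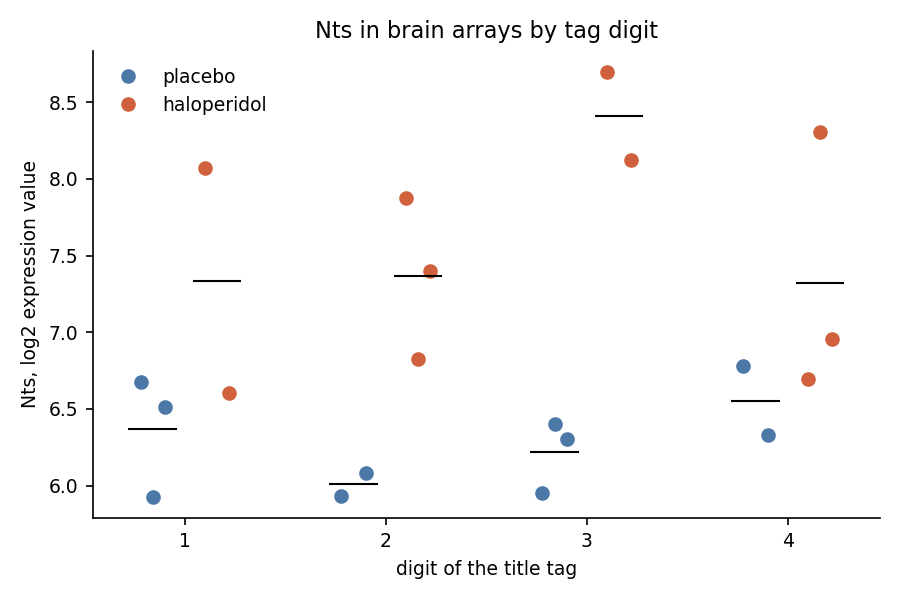
Nts in brain (log2 expression value, vertical axis) by the digit of the title tag (horizontal axis), with 1 point per array and a line at the mean of each treatment. The haloperidol mean is higher in each digit, with differences from 0.77 to 2.19.

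Among haloperidol brains Nts moved with the main axis of variation of all brain arrays. The first principal component of the other 12543 genes tested in brain was computed over the brain arrays of both treatments. It held 53.2% of the variance of these genes. Its sign was set so that the haloperidol mean was positive, and 9 of the 10 haloperidol scores then exceeded the mean placebo score. The component was added as a measure after the data were seen. Among the 10 haloperidol arrays Nts and this component correlated with r = 0.95 and rho = 0.98 (two-sided permutation p = 3e-05 for each, 0.00024 after Benjamini-Hochberg over 8 relations), and r was 0.93 without the 2 arrays farthest from the median of Nts. Among the 10 placebo arrays r was 0.30 and rho 0.48 (permutation p = 0.393 and 0.169, adjusted 0.523 and 0.329). The difference between these correlations was not tested. The scores ran from -14.0 to 42.6 in haloperidol and from -23.8 to -2.56 in placebo arrays. The component was built from these same arrays to hold their largest shared variation. How many other genes followed it as closely was not counted, so the r does not set Nts apart.

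Because the component also differs between the treatments, its share in the Nts difference and that of the treatment cannot be told apart in this design. With the component as a covariate the Nts difference was 0.39, and with the array median over all probes as a covariate it was 0.82. With either covariate limma called 0 of 12547 genes, and before adjustment 911 with the component and 550 with the median had p under 0.05. The median over all probes itself lay between 6.08 and 6.33 in haloperidol and between 6.27 and 6.40 in placebo brains, and its correlation with Nts was -0.35 among haloperidol and -0.30 among placebo arrays (permutation p = 0.320 and 0.398, adjusted 0.512 and 0.579 over 16 relations).

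The genes whose deviations from the group mean were most like those of Nts over the 20 brain arrays were not other neuropeptide genes. They were Hax1 (r = 0.94), which encodes a mitochondrial protein that guards against cell death, Hsbp1 (0.94), a binding partner of heat shock factor, Ssna1 (0.94), Tbrg1 (0.94), Timm10 (0.94), a chaperone of protein import into mitochondria, and Cnpy2 (0.94). Their Spearman correlations were 0.91 to 0.94. Within the placebo arrays alone r was 0.55 for Timm10 and 0.73 to 0.82 for the other 5. The 2 most opposite genes were Dock4 (-0.92), which activates a small GTPase, and Kcnj9 (-0.91), a subunit of potassium channels opened by G proteins. Such likeness was common: 2588 of 12546 genes had an r with Nts above 0.5 and 2954 below -0.5, and all genes share the arrays and their normalization.

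Of the 3 receptor genes 0 passed in brain, where 30.4% of all genes did. Ntsr1, the high-affinity receptor, which marks corticothalamic neurons of the deep cortex and is found on dopamine neurons, ran from 6.50 to 7.11 with placebo (median 6.77) and from 6.29 to 7.37 with haloperidol (median 6.66). The haloperidol arrays spread around the placebo range on both sides, with 1 above it and 3 below it. The means were 6.78 ± 0.17 and 6.71 ± 0.33 (SD, n = 10 each). The change was -0.07 (SE 0.11, 95% interval -0.29 to 0.16, limma adjusted p = 0.648), so that a rise above 1.11-fold or a fall below 0.816-fold lies outside the interval of this fit. Over 16 alternative settings the change ran from -0.13 to 0.22.

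Ntsr2, the low-affinity receptor, which is prominent in astrocytes, ran from 9.77 to 10.13 with placebo (median 9.99) and from 9.64 to 10.15 with haloperidol (median 9.92). Nearly all arrays of both groups shared one range, with haloperidol 2L lowest and haloperidol 1B highest. The means were 9.94 ± 0.12 and 9.92 ± 0.14 (SD, n = 10 each). The change was -0.02 (SE 0.063, 95% interval -0.15 to 0.11, limma adjusted p = 0.807). The astrocyte marker list, at a mean of 9.87 to 10.35 in placebo and 10.18 to 10.39 in haloperidol brains, had 1 of 10 members higher, S100b (0.41, limma adjusted p = 0.0145), and 0 lower, with a median change of 0.04, where 15.2% of all genes were higher. After subtraction of the array median 4 of the 10 were higher (S100b, Gfap, Slc1a3 and Gja1) with a median of 0.18, where 32.6% of all genes were higher.

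Sort1, the sortilin gene, ran from 10.71 to 11.08 with placebo (median 10.97) and from 10.64 to 11.08 with haloperidol (median 10.87). The single low placebo array was 1N, and 1 haloperidol array, 3B, lay below it. The means were 10.95 ± 0.10 and 10.88 ± 0.14 (SD, n = 10 each). The change was -0.07 (SE 0.059, 95% interval -0.19 to 0.05, limma adjusted p = 0.364). After each array's median was subtracted, which moved the median change of all genes from -0.02 to 0.12, the changes of Ntsr1, Ntsr2 and Sort1 were 0.07, 0.11 and 0.07, so that their direction depended on the scaling (limma adjusted p 0.668, 0.221 and 0.481).

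**Figure D3:**
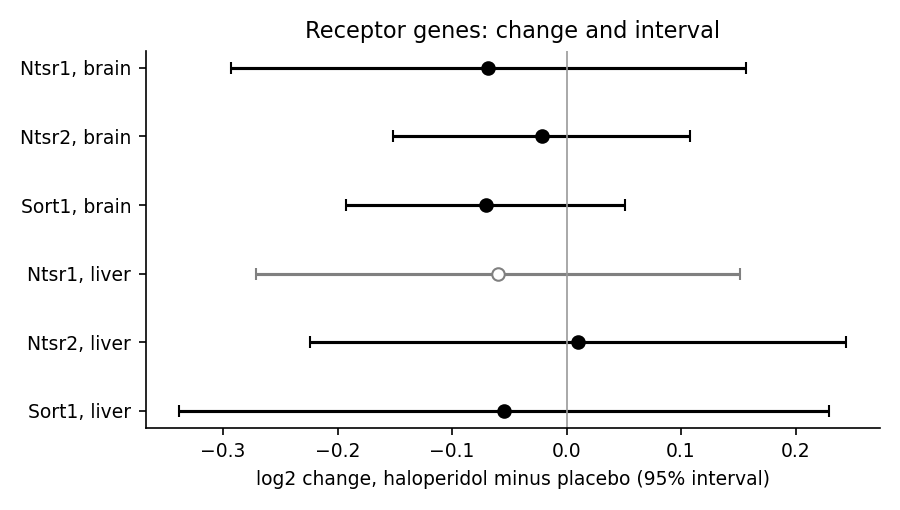
Log2 change (horizontal axis, haloperidol minus placebo) of the 3 receptor genes in brain and liver, with the 95% interval of the limma fit; the open grey point is Ntsr1 in liver, below the limit for dim genes and not tested. All 6 intervals include 0.

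The genes did not vary alike among mice of one treatment. Among haloperidol brains Sort1 was lower where Nts was higher, with r = -0.84 (permutation p = 0.00306, adjusted 0.0367 over 12 relations) and rho = -0.77 (permutation p = 0.0125, adjusted 0.105), and r was -0.79 without the 2 arrays farthest from the median of Nts. Ntsr1 and Sort1 correlated with r = 0.78 (permutation p = 0.00759, adjusted 0.0455) and rho = 0.75 (permutation p = 0.0176, adjusted 0.105), and r was 0.51 without the 2 arrays farthest in Ntsr1. For Nts and Ntsr1 r was -0.71 and rho -0.70 (permutation p = 0.0214 and 0.0311, adjusted 0.0854 and 0.125), with r at -0.78 without 2 arrays.

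With the array median subtracted both calls ended, with r at -0.48 for Nts and Sort1 and 0.78 for Ntsr1 and Sort1 (permutation p = 0.159 and 0.00736, adjusted 0.318 and 0.0883). In the same haloperidol arrays the first component correlated with Sort1 at r = -0.69 and with Ntsr1 at r = -0.69 (permutation p = 0.0270 and 0.0283, both adjusted to 0.0753 over 8 relations), and its part in these relations was not tested. Ntsr2 followed none of the others beyond r = 0.18 in size among haloperidol brains. Among placebo brains the 6 pairs had r from -0.24 to 0.58, with the highest for Ntsr1 and Ntsr2 (rho 0.60, permutation p = 0.0799 for r and 0.0722 for rho, adjusted 0.240 and 0.217), and Nts and Sort1 had r = 0.44. Whether the relations differ between treatments was not tested.

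**Figure D4:**
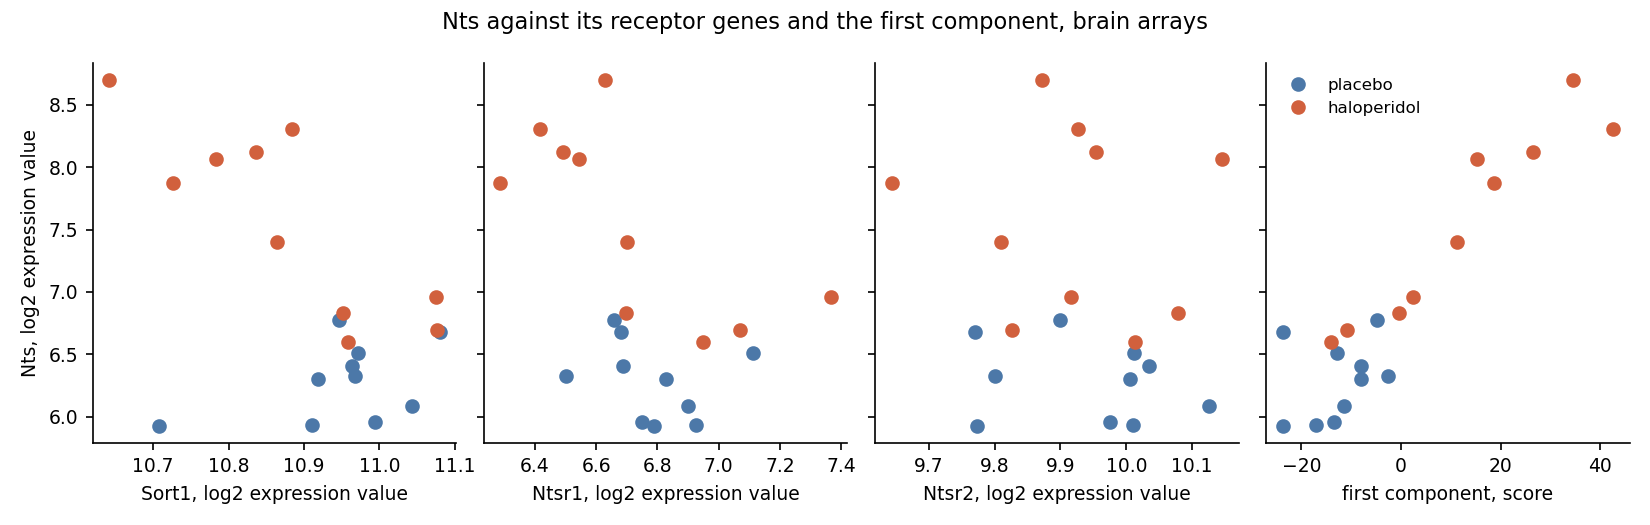
Nts (log2 expression value, vertical axis) against Sort1, Ntsr1, Ntsr2 and the first principal component of the other genes (horizontal axes), with 1 point per brain array. Among haloperidol arrays Nts falls with Sort1 (r = -0.84) and Ntsr1 (r = -0.71) and climbs with the component (r = 0.95), while r among placebo arrays is 0.44, -0.24 and 0.30.

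The genes most like each receptor gene in their deviations over the 20 brain arrays were also listed. For Ntsr1 they were Grik4 (r = 0.88), a kainate receptor subunit, Zfp668 (0.87) and Phlpp2 (0.87), a phosphatase of AKT. For Sort1 they were Itm2c (0.94), Syp (0.93), the synaptic vesicle protein synaptophysin, and Plppr4 (0.91), a membrane protein of glutamatergic synapses. For Ntsr2 they were Cdk2ap1 (0.88), Trmt112 (0.85) and Cyb5b (0.83). These r are of deviations from the group mean and describe these arrays only, with 2528 of 12546 genes above 0.5 for Ntsr1, 2215 for Sort1 and 755 for Ntsr2.

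Few genes that process peptides, break them down or carry the receptors' signal passed. Of 57 genes tested in 5 pathway lists, 2 rose and 5 fell, where 15.2% of all genes passed in each direction. Among 11 genes of peptide processing 1 rose, Scg5, the chaperone 7B2 of the convertase that Pcsk2 encodes (0.32, SE 0.078, limma adjusted p = 0.00669), and 0 fell. Pcsk2 itself was not among these 11. The convertase gene Pcsk1 was at 0.07 and the carboxypeptidase gene Cpe at 0.02. The median change of this list was -0.07, against -0.02 over all genes tested. Among 8 peptidase genes Ece2, an endothelin-converting enzyme, fell by 0.25 (SE 0.065, limma adjusted p = 0.00872). The enzymes best known for cleaving neurotensin did not pass, with Mme (neprilysin) at 0.08, Thop1 at 0.07 and Nln (neurolysin) at -0.07.

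In the list of the sortilin family and its partners 3 of 14 genes fell and 1 rose, where 15.2% of all genes passed in each direction. Sorl1, a close relative of sortilin, fell by 0.21 (SE 0.063), Gga3, an adaptor that sorts sortilin at the Golgi, by 0.26 (SE 0.079) and Grn, the gene of the sortilin ligand progranulin, by 0.26 (SE 0.094). Vps35, a subunit of the retromer that returns sortilin to the Golgi, rose by 0.32 (SE 0.11). Their limma adjusted p were 0.0178, 0.0170, 0.0414 and 0.0269. The median of this list was -0.12. After subtraction of the array median it was 0.02, and Sorl1, Gga3 and Grn no longer passed (limma adjusted p 0.401, 0.183 and 0.311).

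Of 13 genes of Gq signalling, the route by which Ntsr1 acts, 1 fell and 0 rose, where 15.2% of all genes passed in each direction. Gnaq, the G protein subunit itself, fell by 0.18 (SE 0.064, limma adjusted p = 0.0368), and the list's median was -0.13. After subtraction of the array median Gnaq was at -0.04 (limma adjusted p = 0.610) and the list's median at 0.004. Among 11 genes of AP-1 and CREB factors, which include those that act at motifs of the kind shown above, 0 passed, where 30.4% of all genes did. Fos was at -0.23 (SE 0.10, limma adjusted p = 0.0875) and Crem at 0.19 (SE 0.097, limma adjusted p = 0.130).

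After subtraction of the array median, 5 of the 57 genes were higher and 0 lower, where 32.6% of all genes were higher and 3.72% lower. Scg5 and Vps35 stayed among those that rose, and Cpe (0.16), Scg2 (0.26) and Crem (0.33) joined them. When 4N and 4T of the haloperidol group and placebo 1L were left out, 1 was higher and 6 lower, against 9.44% and 10.6% of all genes, and Gnaq and Vps35 no longer passed. Without placebo 1L and haloperidol 1R and 2N, 2 were higher and 13 lower, against 18.3% and 19.7% of all genes.

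**Figure D5:**
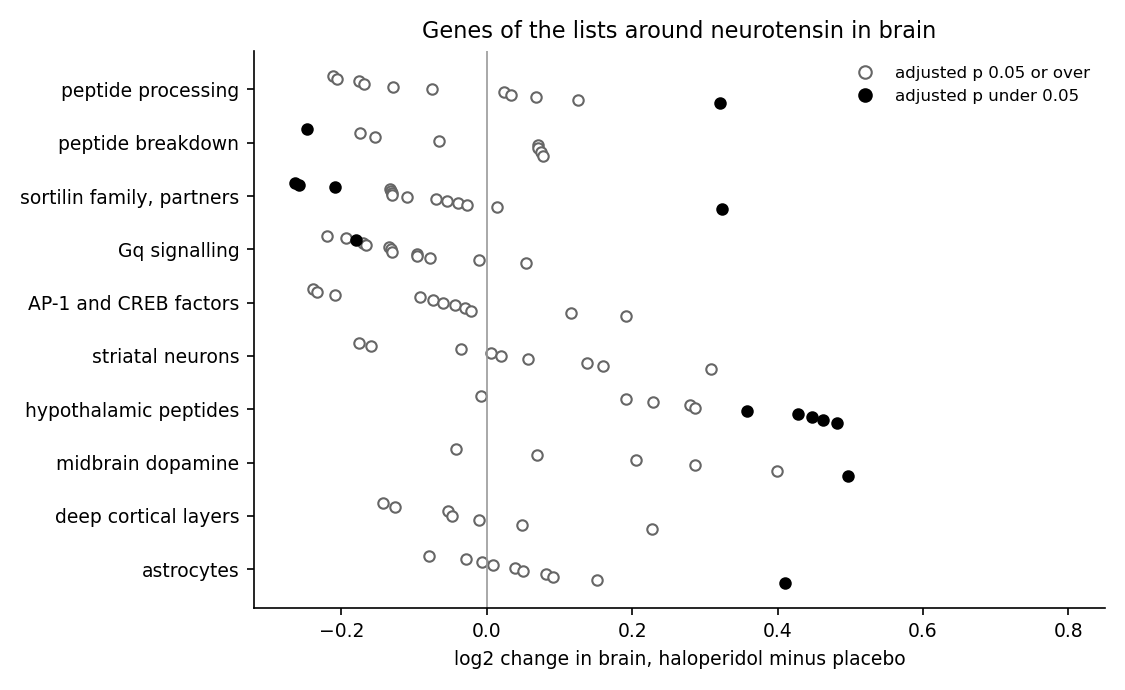
Log2 change in brain (horizontal axis, haloperidol minus placebo) of each gene tested in the lists of peptide processing, breakdown, sortilin partners, signalling and transcription factors and of region and cell markers, with filled points for a limma adjusted p under 0.05. The hypothalamic peptide genes lie mostly to the right, with 5 of 10 passing, and the Gq signalling genes mostly to the left, with 1 of 13 passing. Of all genes, 15.2% passed in each direction. After subtraction of the array median, not shown, the median change was 0.46 for the hypothalamic and 0.004 for the Gq genes.

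Markers of the regions that hold neurotensin neurons were read in the same arrays. Of 10 hypothalamic neuropeptide genes tested, which leave Nts out, 5 rose and 0 fell, with a median change of 0.32, where 15.2% of all genes rose. They were Hcrt, the orexin gene (0.48), Avp, the vasopressin gene (0.46), Trh, the gene of thyrotropin-releasing hormone (0.45), Vip (0.43) and Gal, the galanin gene (0.36), with limma adjusted p from 0.0125 to 0.0288. When 4N and 4T of the haloperidol group and placebo 1L were left out, 2 of the 10 rose, Avp and Trh, where 9.44% of all genes rose. Without placebo 1L and haloperidol 1R and 2N, 8 rose, against 18.3% of all genes, and after subtraction of the array median 8 rose, against 32.6%. The mean level of the 11 genes with a probe was 6.84 to 7.23 in placebo and 6.98 to 7.78 in haloperidol brains, and their part in the Nts difference was not tested.

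Among placebo brains Nts correlated with the mean of these hypothalamic genes at r = 0.78 (permutation p = 0.00212, adjusted 0.0339 over 16 relations) and rho = 0.70 (permutation p = 0.0300, adjusted 0.344), with r at 0.61 without the 2 arrays farthest from the median. Among haloperidol brains r was 0.43 and rho 0.54 (permutation p = 0.214 and 0.113, adjusted 0.511 and 0.451). Of the other 15 relations between Nts and array measures or marker lists none passed after adjustment. Those with an unadjusted permutation p under 0.05 were the rho with astrocyte genes among haloperidol brains (rho = 0.66, permutation p = 0.0430, adjusted 0.344) and the r with midbrain dopamine genes among placebo brains (r = -0.58, permutation p = 0.0442, adjusted 0.353, rho = -0.61, permutation p = 0.0670, adjusted 0.357).

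Striatal projection neuron genes, markers of the main site where D2 blockers are known to act on neurotensin, were also read. Of 9 tested, 0 passed, where 30.4% of all genes did. Foxp1, the gene of smallest p, was at -0.18 (SE 0.080, limma adjusted p = 0.0953). Tac1, the substance P gene, was at 0.31 (SE 0.14, limma adjusted p = 0.1003), Penk, the enkephalin gene, at 0.14 (SE 0.083, limma adjusted p = 0.202) and Drd2 at -0.04. Of the 9 genes, 6 were above 0, and the median change was 0.02. Their mean level was 8.41 to 9.51 in placebo and 8.69 to 9.18 in haloperidol brains. Without placebo 1L and haloperidol 1R and 2N, Tac1 and Penk passed at 0.54 and 0.20 (limma adjusted p 0.000604 and 0.0383), and with the array median subtracted they passed at 0.44 and 0.27 (limma adjusted p 0.0267 and 0.0229). In each of these settings 2 of the 9 were higher, where 18.3% and 32.6% of all genes were. Foxp1 was at -0.18 and -0.04 in them (limma adjusted p 0.0999 and 0.727). When 4N and 4T of the haloperidol group and placebo 1L were left out, 0 of the 9 passed, where 9.44% of all genes were higher. Tac1 was then at 0.35 and Penk at 0.15 (limma adjusted p 0.0528 and 0.0975). Among 6 midbrain dopamine genes 1 rose, the dopamine transporter gene Slc6a3 (0.50, SE 0.13, limma adjusted p = 0.00848), where 15.2% of all genes rose. Th was at 0.07 and Nr4a2 at -0.04 (limma adjusted p 0.742 and 0.683). With the array median subtracted they were at 0.21 and 0.09 (limma adjusted p 0.284 and 0.353). Of 7 genes of deep cortical layers, where Ntsr1 is a marker, 0 passed. After subtraction of the array median 3 of the 6 midbrain genes were higher (Slc6a3, Slc18a2 and Aldh1a1) and 2 of the 7 deep cortical genes, Rprm at 0.36 and Tle4 at 0.19 (limma adjusted p 0.0272 and 0.0315), where 32.6% of all genes were higher. Without placebo 1L and haloperidol 1R and 2N, 1 of the 7 was higher, Rprm (0.33, limma adjusted p = 0.0303), against 18.3% of all genes.

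In liver Nts and Ntsr1 were below the limit for dim genes on every array, a mean of 3.92 over the liver arrays under which genes were not tested. Nts ran from 2.55 to 2.98 with placebo (median 2.69) and from 2.44 to 3.11 with haloperidol (median 2.75), with overlapping groups and a difference of 0.05. Ntsr1 ran from 2.18 to 2.91 with placebo (median 2.51) and from 2.28 to 2.74 with haloperidol (median 2.43), a difference of -0.06. In brain, by contrast, both genes lay above the brain limit of 5.52 in all 20 arrays. Because the tissues appear to have been normalized apart, no order is given between brain and liver levels.

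Ntsr2 in liver ran from 3.80 to 4.49 with placebo (median 4.33) and from 3.91 to 4.66 with haloperidol (median 4.25), and 3 of 18 arrays lay below the limit. The change was 0.01 (SE 0.11, 95% interval -0.22 to 0.24, limma adjusted p = 0.983). With Nts and Ntsr1 below the limit, only Ntsr2 and Sort1 were tested in liver.

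Sort1 was measured well above the limit in liver, where sortilin is known to take part in the secretion of lipoproteins. It ran from 6.50 in 1T to 7.61 in 3N with placebo (median 7.10) and from 6.67 in 2T to 7.42 in 4L with haloperidol (median 6.995), and the groups shared nearly one range. The means were 7.06 ± 0.35 and 7.001 ± 0.27 (SD, n = 9 each), a change of -0.05 (SE 0.14, 95% interval -0.34 to 0.23, limma adjusted p = 0.916). The placebo livers differed among themselves by 2.16-fold in Sort1, against 1.29-fold in placebo brains. The median SD over the genes tested was also larger, 0.203 in placebo livers and 0.138 in placebo brains. The SD of Sort1 exceeded that of 88.9% of the genes tested in placebo livers and 23.4% in placebo brains. The genes nearest to it over the 18 liver arrays were Ago4 (r = 0.88), an Argonaute protein of RNA silencing, 1700056E22Rik (0.83) and Gdf6 (0.81).

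None of the 6 tested genes of hepatic lipoprotein handling and of the neighbourhood of Sort1 passed in liver. Of all 12547 genes tested there 0 passed, so a count of 0 does not set a list apart. Mttp, which loads lipid onto apolipoprotein B, was at -0.14 (SE 0.066, limma adjusted p = 0.476) and the receptor gene Lrp1 at 0.13 (SE 0.078, limma adjusted p = 0.560). The median of the list was 0.02, against -0.02 over all liver genes. The liver peptidase of smallest p was Thop1, at -0.27 (SE 0.080, limma adjusted p = 0.367). Of the 14 tested genes of Gq signalling 0 passed, with a median of 0.06.

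The effect of haloperidol on the receptor genes was also compared between the tissues. The liver effect minus the brain effect was 0.03 for Ntsr2 (SE 0.13, 95% interval -0.22 to 0.29, limma adjusted p = 0.881) and 0.02 for Sort1 (SE 0.15, 95% interval -0.28 to 0.31, limma adjusted p = 0.954). Neither passed, where 23.0% of 10869 genes did, 9.16% with a higher and 13.9% with a lower effect in liver. With the array median subtracted the values were -0.19 and -0.21 (limma adjusted p 0.292 and 0.273). For Nts, which holds the known brain difference and is dim in liver, the values stand side by side at 1.26 in brain and 0.05 in liver, without a test.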

How the data were processed

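Expression was measured with biotin-labelled Affymetrix arrays. The deposited values are log2 signals, and per the submitters' processing notes the tools were RMA and Affymetrix Expression Console. The sources used here do not name the array model, tool versions or genome build. Brain and liver value distributions differed by up to 1.42, while arrays lay within 0.21 (brain) and 0.23 (liver) of their tissue's mean distribution. GEO's platform annotation named 21218 of 35556 probes with 1 symbol, 1881 with several and 12457 with none. Of the first, 21185 matched RefSeq by Entrez ID, and 0 symbols changed. Where a gene had several probes, the one of highest mean was used.

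Within each tissue the 33.3% of genes of lowest mean were left out. Haloperidol was compared with placebo with limma 3.58.1 in R 4.3.3 (lmFit, eBayes), two-sided, with Benjamini-Hochberg adjustment over all genes tested, at a threshold of 0.05. For the difference between tissues, values came from a fit of all 38 arrays, without pairing by title tag. Correlations used permutation tests with 100000 resamples, or exact tests for 9 pairs. The fits were tested on simulated data.

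The members, lists and tests were chosen with earlier results of these data known. Named genes are the members, list genes past the threshold (up to 4 by p, otherwise those of smallest p) and the 3 to 6 genes most like a member. A few list members of known role were also named, chosen after their values were seen (Gal, Gfap, Slc1a3, Gja1, Slc18a2, Aldh1a1, Th, Nr4a2, Rprm, Tle4, Pcsk1, Cpe, Mme, Thop1, Nln, Drd2, Penk). Alternatives covered filter, normalization, block, variance model, weights, probes, covariates and arrays left out. Arrays have no read depth, and their number limits the precision. Nothing says which samples shared a cage or processing day, so p-values measure the spread between these arrays. Arrays of a group correlated at 0.964 to 0.992 and none were identical.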

Additional observations from a re-analysis of the deposited data

Results flagged for a closer look

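Sort1 in the placebo brain 1N, at 10.71, stood apart from the other 9 placebo brains, with a gap to the next array of 0.544 of the group's range. Chance marks about 1 in 20 such groups, and this was 1 of 16 groups of arrays examined. The same array was the lowest of the placebo brains in Nts (5.93).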

How the results depend on the processing

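The difference of Nts in brain kept its direction in 16 of 16 alternatives, from 0.39 to 1.52, and moved by more than the spread between arrays only with the first component as a covariate (0.39). All 16 fits used arrays by whose difference Nts was chosen, so the shared direction is no separate evidence. Ntsr1, Ntsr2 and Sort1 in brain and Ntsr2 and Sort1 in liver passed in none of theirs, and Ntsr1 in liver was not tested. In brain Ntsr1 kept its direction in 13 of 16 alternatives (-0.13 to 0.22), Ntsr2 in 15 (-0.08 to 0.11) and Sort1 in 14 (-0.16 to 0.07). The smallest limma adjusted p in brain was that of Sort1 after quantile normalization (0.0673, change -0.16). Leaving out each array in turn gave -0.14 to -0.02 for Ntsr1, -0.05 to 0.01 for Ntsr2 and -0.10 to -0.04 for Sort1 in brain, and in liver 0.01 to 0.10 for Nts, -0.11 to -0.01 for Ntsr1, -0.05 to 0.05 for Ntsr2 and -0.12 to 0.02 for Sort1. The brain count of 3816 genes became 0 with the array median or the first component as a covariate, with the cause not tested, and 2518 when 4N and 4T of the haloperidol group and placebo 1L were left out, with the cause not tested, while leaving out placebo 1L and haloperidol 1R and 2N gave 4776. Leaving out single arrays gave 2869 to 4817 in brain, 0 to 1 in liver (1 without haloperidol 1B) and 1924 to 3001, against 2502, for the difference between tissues. The liver count rose from 0 to 40 in a fit of all 38 arrays, and the count for the difference to 4345 with the array median subtracted. Among pathway genes in brain, 5 were higher and 0 lower with the array median subtracted, 1 was higher when 4N, 4T and 1L were left out, and 13 were lower without placebo 1L and haloperidol 1R and 2N. With the array median subtracted r was -0.48 for Nts and Sort1 and 0.78 for Ntsr1 and Sort1, past the threshold no longer.

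With the tag digit as a replicate block the Nts difference in brain was 1.32, and Sort1 was at -0.09 (limma adjusted p 0.268). With the title tag as a replicate block the difference between tissues was 0.01 for Ntsr2 and 0.03 for Sort1. Brain and liver arrays of the same tag had correlations of their deviations from -0.32 to 0.25, above 0.1 for 5 of 18 tags. Of 18 brain arrays, 3 were closest to the liver array of their own tag. These values cannot show whether a tag marks 1 mouse, since brain and liver of a mouse need not vary together. The main fit did not treat the tags as pairs.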

Other observations

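Brain and liver arrays share 18 title tags, 9 in each treatment, whose meaning the labels do not give. Across the 9 tags Sort1 in brain and liver had r = 0.13 with haloperidol and 0.14 with placebo (exact permutation p = 0.742 and 0.734), with rho at 0 and 0.05 (exact permutation p = 1 and 0.912). Of the 8 relations (4 genes in 2 treatments) none passed after Benjamini-Hochberg adjustment. The smallest p was that of Ntsr1 with placebo, a gene below the liver limit for dim genes (r = -0.79, exact permutation p = 0.00887, adjusted 0.0710; rho = -0.70, exact permutation p = 0.0433, adjusted 0.346), with r at -0.55 without the 2 tags farthest from the median.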
